A study of Mus musculus with 6 samples.

Results

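The 10 genes described here encode the metallothioneins and the main proteins of iron handling in the liver: Mt1, Mt2, Hamp, Trf, Tfrc, Tfr2, Fth1, Ftl1, Slc40a1 and Slc39a14. They were taken by symbol from a matrix of 22851 genes, and all 10 were found and passed the filter on low values. Liver RNA came from male C57BL/6J mice, an inbred strain, fed a high-fat diet. Vehicle was given to 1 group. The other was given ONX-0914, an inhibitor of the immunoproteasome subunit PSMB8, at 10 mg/kg under the skin every other day for 6 weeks. Both groups were thus on the high-fat diet, and no mice on a control diet were analysed here. Each group has 3 libraries, vehicle 1, 2 and 4 and ONX-0914 1, 3 and 4, while the design text gives 2 biological replicates per group. Which libraries come from separate animals is not stated, so p-values reflect only how far these libraries spread, which may be technical. The sources used here do not state the animals' age.

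Metallothioneins are small cysteine-rich proteins that bind zinc and copper, and the liver induces them in response to metals, glucocorticoids and inflammation. Iron circulates on transferrin, enters cells through transferrin receptors or as free iron through the transporter ZIP14, is stored in ferritin, and leaves through ferroportin. The liver sets the whole body's iron traffic by secreting hepcidin, which binds ferroportin and causes its degradation. Hepcidin transcription is driven by bone morphogenetic proteins (BMPs) from sinusoidal endothelial cells and by interleukin-6 (IL-6) acting through STAT3. Ferritin, ferroportin and transferrin receptor 1 are also controlled after transcription, by iron regulatory proteins that bind short hairpins in their mRNAs.

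Values were treated as FPKM, read or fragment counts normalised to gene length and library size. Comparisons between libraries, and between genes in the treated libraries, still carry the shift of the median gene and the length trend given below. Absolute read totals were not given. Low values gave relative depths between 0.867 and 1.28 of vehicle 1. The 12 hepatocyte markers checked were all detected, with summed levels of 94398 to 98136 FPKM with vehicle and 73154 to 110022 with ONX-0914. Of the 10743 genes tested with limma on log2(FPKM + 1), the median gene had a log2 fold change of -0.64. On the first principal component ONX-0914 3 lay between vehicle and ONX-0914 1 and 4 (10.6, against -56.07 to -47.2 and 67.81 to 73.95). The treated libraries also had lower values for long transcripts. Relative to vehicle, the longest 25% of transcripts had a median log2 value that differed from that of the shortest 25% by -0.93, -0.25 and -0.99 in ONX-0914 1, 3 and 4. For these reasons fold changes are also given after median-ratio scaling (division of each library by its median ratio to the geometric mean, over genes above 1 FPKM in every library) and after length correction (removal of each library's trend with transcript length). The median gene was then at -0.17 and 0.02. The hepatocyte markers did not move together, with log2 fold changes from -2.23 (Hnf4a) to 1.17 (Fgb). At a limma adjusted p under 0.05, 2 of the 12 were higher and 4 lower (2.56% and 43.5% of all genes). With either correction 3 were higher and none lower (9.64% and 18.7% of all genes by median ratio, 9.56% and 11.6% by length). The part of RNA quality in the results was not tested.

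Mt1 and Mt2 rose, Slc40a1 and Tfrc fell, and the other 6 genes did not pass at a limma adjusted p under 0.05. Thus 2 of 10 were called higher, where 2.56% of all tested genes were, and 2 of 10 were called lower, where 43.5% were. The 2 falls are a smaller share than the background. The median log2 fold change of the 10 was 0.26. After median-ratio scaling, 4 were higher (9.64% of all genes) and 1 lower (18.7%), and after length correction 3 were higher (9.56%) and 1 lower (11.6%). The counts moved most with ONX-0914 3. Without it 5 were higher (6.89% of all genes) and 3 lower (60.6%), and with it as the only treated library 2 were higher (2.88%) and 1 lower (27.9%). In that last comparison the spread comes from the vehicle libraries alone. The 2 groups did not overlap for Mt1, Mt2 and Tfr2, which were higher in every treated library (4.93% of all genes), nor for Tfrc, Fth1 and Slc40a1, which were lower in every treated library (53.5%).

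**Figure D1:**
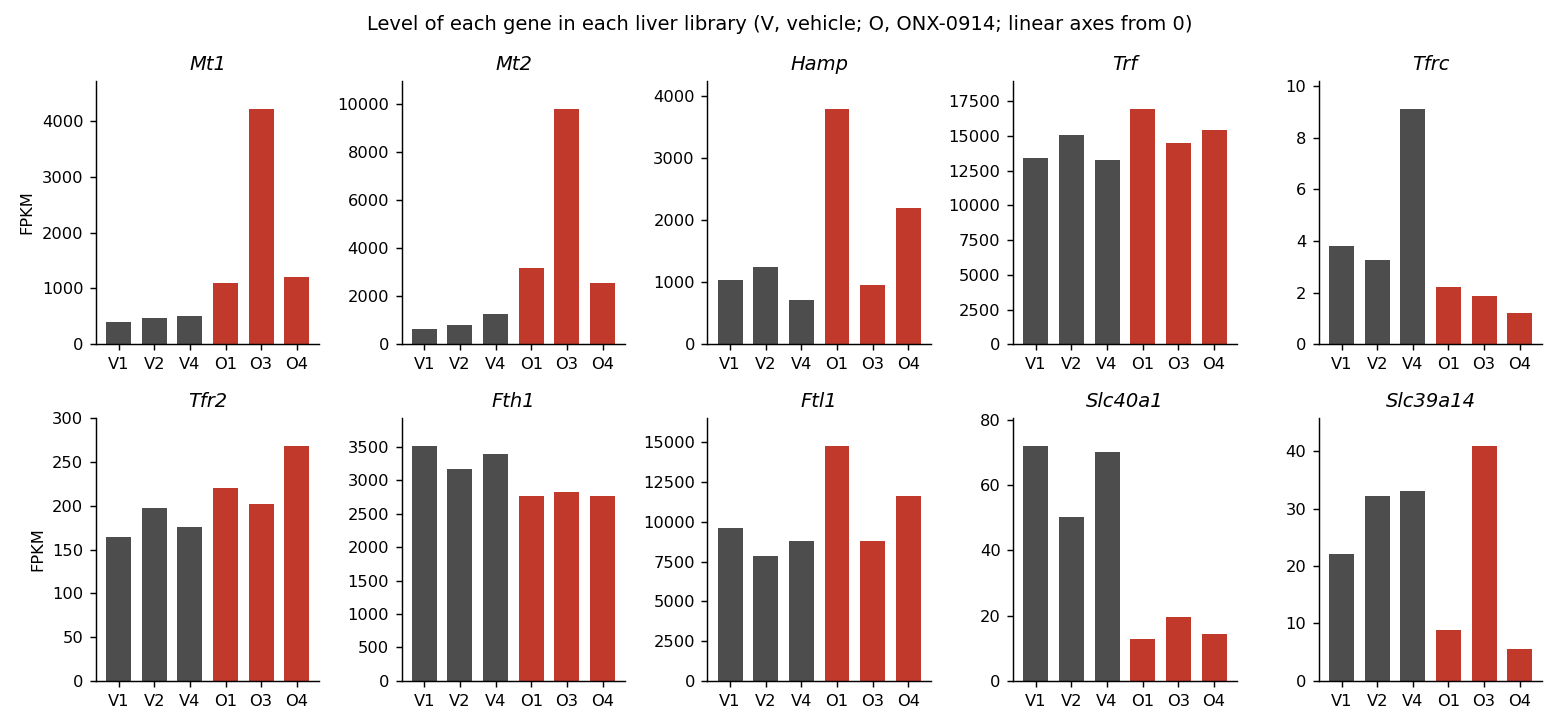
FPKM of each of the 10 genes in each library, as bars on linear axes from 0; grey bars are vehicle (V) 1, 2 and 4 and red bars ONX-0914 (O) 1, 3 and 4. Mt1 and Mt2 peak in ONX-0914 3, at 4210 and 9785 FPKM, while Hamp in that library is at 954 FPKM, within the vehicle range.

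Mt1 and Mt2 lie next to each other on chromosome 8 of GRCm38, Mt2 from 94172664 to 94173568 and Mt1 from 94179082 to 94180327, both on the plus strand. Mt1 was 390, 465 and 513 FPKM in the libraries vehicle 1, 2 and 4, and 1095, 4210 and 1201 in the treated libraries ONX-0914 1, 3 and 4. Every treated library lay above every vehicle library, and ONX-0914 3 stood well above the other 2. The means were 456 ± 62.2 (SD, n = 3) and 2169 ± 1769 FPKM (n = 3), a log2 fold change of 1.96 with SE 0.45 (limma adjusted p = 0.0086). Mt2 was 634, 797 and 1258 FPKM with vehicle and 3183, 9785 and 2536 with ONX-0914, in the same order of libraries. It followed Mt1, with means of 897 ± 324 and 5168 ± 4012 FPKM (n = 3 each) and a log2 fold change of 2.32 with SE 0.47 (limma adjusted p = 0.0056). By mean level, Mt2 went from rank 157 to rank 33 of all 22851 genes, and Mt1 from rank 336 to rank 66.

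The size of the metallothionein rise rested partly on 1 library. Without ONX-0914 3 the log2 fold changes were 1.34 for Mt1 and 1.72 for Mt2 (limma adjusted p = 0.00038 and 0.001). In ONX-0914 3 alone they were 3.21 and 3.51 (limma adjusted p = 0.00098 and 0.0016). After median-ratio scaling they were 2.56 and 2.92, both past the threshold. After length correction Mt1 passed at 2.04 (limma adjusted p = 0.0275) and Mt2 did not, at 1.88 (limma adjusted p = 0.0625). That correction used the longest coding transcript, of 1085 bases for Mt1 and 511 for Mt2. Other transcript lengths were not tried, so this difference between the 2 genes depends on the annotation. The ratio of Mt2 to Mt1 was 1.63, 1.72 and 2.45 with vehicle and 2.91, 2.32 and 2.11 with ONX-0914, an overlap between the groups (exact permutation test, two-sided p = 0.3). The remaining members of the family, Mt3 and Mt4, were listed at 0 in all 6 libraries.

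The 250 bases before the annotated start of each gene are shown because the 2 genes moved together. They are from RefSeq's GRCm38.p6 annotation, chr8:94178839-94179088 for Mt1 and chr8:94172368-94172617 for Mt2, plus strand, 5′ to 3′. Capitals mark matches on either strand to the core of the metal response element, the sequence bound by the zinc sensor MTF1, searched as TGCACNC or TGCGCNC.
Mt1: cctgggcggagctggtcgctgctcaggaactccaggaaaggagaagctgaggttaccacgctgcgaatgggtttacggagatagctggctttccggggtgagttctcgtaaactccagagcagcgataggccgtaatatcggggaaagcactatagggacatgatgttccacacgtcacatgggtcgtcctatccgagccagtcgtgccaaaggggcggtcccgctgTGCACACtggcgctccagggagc
Mt2: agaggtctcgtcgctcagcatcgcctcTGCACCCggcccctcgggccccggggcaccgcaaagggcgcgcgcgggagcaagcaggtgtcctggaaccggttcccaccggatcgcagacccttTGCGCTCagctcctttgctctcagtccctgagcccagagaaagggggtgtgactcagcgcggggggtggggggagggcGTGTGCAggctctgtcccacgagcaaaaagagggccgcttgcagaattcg
Counted from the start, Mt1 has matches that begin at bases -23, 3 and 21, of which the first is shown, and Mt2 at -223, -128, -50 and 5, of which 3 are shown. In all 32851 windows of this length (250 bases before and 50 after a start), 1.97% held at least 3 matches and 0.517% at least 4. A match is a run of letters and does not show binding. Only 1 annotated start was searched for each gene, and whether it is the one used in these livers was not tested. Bases more than 50 after that start were not searched, so the matches shown may not be all those near the promoter.

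Mtf1 itself, whose product binds these elements, was low and not called: 2.70, 3.18 and 3.00 FPKM with vehicle and 1.80, 2.58 and 2.20 with ONX-0914 (log2 fold change -0.32, limma adjusted p = 0.27). Its direction turned with the scaling, to 0.11 after median-ratio scaling and 0.57 after length correction. Slc30a1, the zinc exporter ZnT1 and a textbook MTF1 target, was 12.4, 7.82 and 10.7 FPKM with vehicle and 6.11, 5.74 and 5.82 with ONX-0914. It was below vehicle in each treated library but did not pass (-0.69, limma adjusted p = 0.0512), and it was at 0.22 after length correction. Of the 23 zinc and copper genes tested, none was called higher, where 2.56% of all genes were. In the same list 9 were called lower, a share near the 43.5% of all genes. Their median log2 fold change was -0.58. After median-ratio scaling 5 were higher and 4 lower (9.64% and 18.7% of all genes), and after length correction 4 were higher and 2 lower (9.56% and 11.6%). Slc31a1, the copper importer CTR1, fell from 146 ± 5.85 to 38.3 ± 26.1 FPKM (n = 3 for both, log2 fold change -2.12, limma adjusted p = 0.0049). Atp7b, the copper pump that loads ceruloplasmin and exports copper to bile, fell from 3.53 ± 0.55 to 0.407 ± 0.17 FPKM (-1.69, limma adjusted p = 0.0015). Slc39a9, the zinc transporter gene ZIP9, fell as well (-1.88, limma adjusted p = 0.0086), but did not pass after length correction (-0.98). Slc31a1 and Atp7b also passed after median-ratio scaling and after length correction.

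By the root mean square difference of log2(FPKM + 1) from each gene's vehicle mean over the 6 libraries, the genes most like Mt1 among 4743 compared were Creld2 (0.335), Mt2 (0.341) and Lcn2 (0.488). Those most like Mt2 were Mt1 (0.341), Creld2 (0.364) and Manf (0.636). Creld2 and Manf encode proteins of the endoplasmic reticulum that are induced when folding is stressed, and Lcn2 encodes lipocalin-2, which binds bacterial iron carriers. Creld2 was 14.8, 13.1 and 12.8 FPKM with vehicle and 54.3, 135 and 44.4 with ONX-0914, highest in ONX-0914 3. The genes were picked by likeness over these same 6 libraries, so a shared peak is largely set by the choice. With ONX-0914, Lcn2 was 816, 1622 and 1390 FPKM and Manf was 699, 675 and 476, so Manf did not peak in ONX-0914 3. Hamp stood at place 732 in likeness to Mt1.

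**Figure D2:**
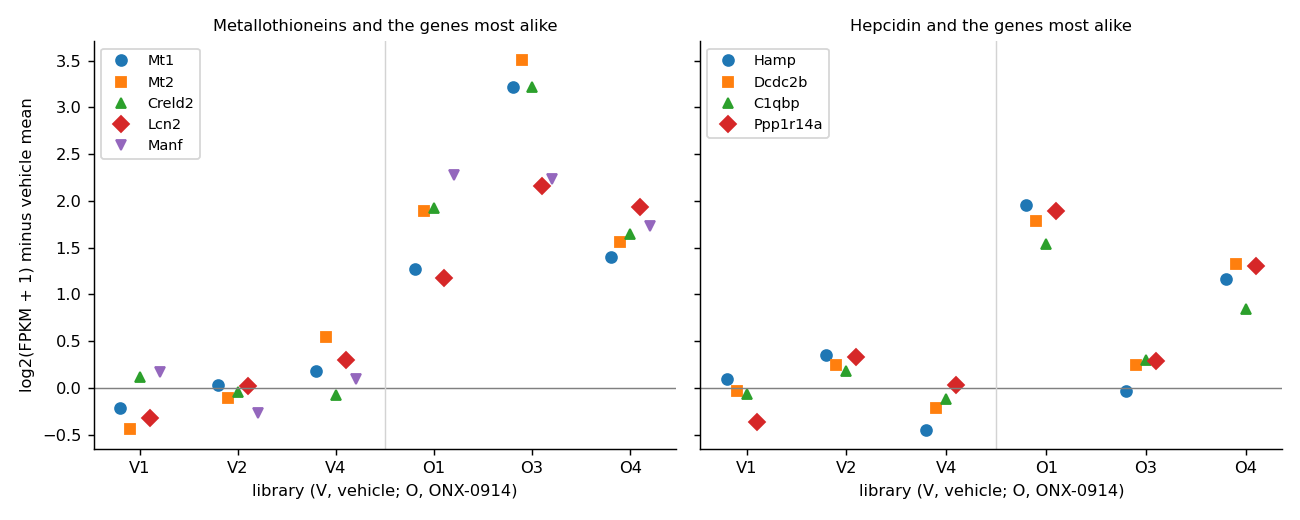
Log2(FPKM + 1) minus the gene's vehicle mean, per library (V, vehicle; O, ONX-0914), for the metallothioneins and the genes most like them (left) and for Hamp and the genes most like it (right). The left set is above the vehicle mean in all 3 treated libraries; the right set is raised in ONX-0914 1 and 4 and near the vehicle mean in ONX-0914 3.

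Hamp, on chromosome 7 from 30942368 to 30944032 (minus strand), encodes hepcidin. It was 1042, 1247 and 712 FPKM in the libraries vehicle 1, 2 and 4, and 3791, 954 and 2190 in the treated libraries ONX-0914 1, 3 and 4. ONX-0914 1 and 4 were above all vehicle libraries, and ONX-0914 3 was within their range. The means were 1000 ± 269.9 and 2312 ± 1422 FPKM (n = 3 each), a log2 fold change of 1.03 (SE 0.44) that did not pass (limma adjusted p = 0.082). Without ONX-0914 3 it passed, at 1.56 (limma adjusted p = 0.0022), and that library alone was at -0.03 (limma adjusted p = 0.948). It also passed, narrowly, after median-ratio scaling (1.63, limma adjusted p = 0.0492), and was at 0.46 after length correction (limma adjusted p = 0.34). Genes closest to Hamp in pattern were Dcdc2b (0.190), C1qbp (0.307) and Ppp1r14a (0.309). C1qbp, a mitochondrial matrix protein gene, was 89.7, 107 and 86.7 FPKM with vehicle and 275, 116 and 169 with ONX-0914. The 10 neutrophil markers checked summed to 372, 310.5 and 1890 FPKM in the libraries vehicle 1, 2 and 4, and to 2181, 188 and 4839 in ONX-0914 1, 3 and 4. The sum was thus high in ONX-0914 1 and 4 and also in vehicle 4, where Hamp was lowest. S100a8 and S100a9 made up most of it. Csf3r went the other way, at 5.03, 4.62 and 5.56 FPKM with vehicle and 2.06, 4.37 and 2.22 with ONX-0914, and Cxcr2 was 1.00 to 1.44 FPKM with vehicle and 0.29 to 0.62 with ONX-0914. None of the 9 markers tested was called in either direction. Without ONX-0914 3, where Hamp was called, 5 of them were called higher and 1 lower (6.89% and 60.6% of all genes). The part of neutrophils in the Hamp values was not tested.

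Hamp2, the second hepcidin gene of the mouse, whose product is not known to regulate iron, had the opposite sign. It was 162, 154 and 161 FPKM with vehicle and 53.9, 4.95 and 27.7 with ONX-0914, lower in every treated library and lowest in ONX-0914 3. The means were 159 ± 4.22 and 28.9 ± 24.5 FPKM (n = 3 each), a log2 fold change of -2.92 with SE 0.65 (limma adjusted p = 0.0076). It stayed past the threshold after median-ratio scaling (-2.33), after length correction (-3.46) and without ONX-0914 3 (-2.01). The ratio of Hamp to Hamp2 within a library, which no single factor per library can alter, was 6.44, 8.09 and 4.42 with vehicle. It was 70.3, 193 and 79.0 with ONX-0914. The groups do not overlap, and p = 0.1 (exact permutation test, two-sided) is the smallest that 3 libraries against 3 allow. It was 0.133 after Benjamini-Hochberg adjustment over the 4 ratios computed. The 2 longest transcripts are 94.6% identical over 410 aligned bases, so the authors' counting could have split or dropped shared reads, and both levels are uncertain to that extent.

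A stretch of 80 bases before each start is shown to compare the 2 paralogs, from RefSeq's GRCm38.p6 annotation, chr7:30944087-30944166 for Hamp and chr7:30924236-30924315 for Hamp2, minus strand, 5′ to 3′. Capitals mark GGCGCC, the core of the BMP response element, and TTCNNNGAA, the core of a STAT site, searched on both strands.
Hamp: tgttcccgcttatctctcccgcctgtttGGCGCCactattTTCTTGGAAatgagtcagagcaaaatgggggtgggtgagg
Hamp2: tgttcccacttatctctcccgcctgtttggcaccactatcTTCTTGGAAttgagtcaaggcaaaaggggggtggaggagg
Both windows hold the STAT core, which begins 97 bases before the start in Hamp and 94 in Hamp2 and is found in 8.30% of all windows. GGCGCC is in the Hamp window, 109 bases before the start, and not in that of Hamp2. It is found in 11.9% of all windows, and both motifs together in 0.645%.

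**Figure D3:**
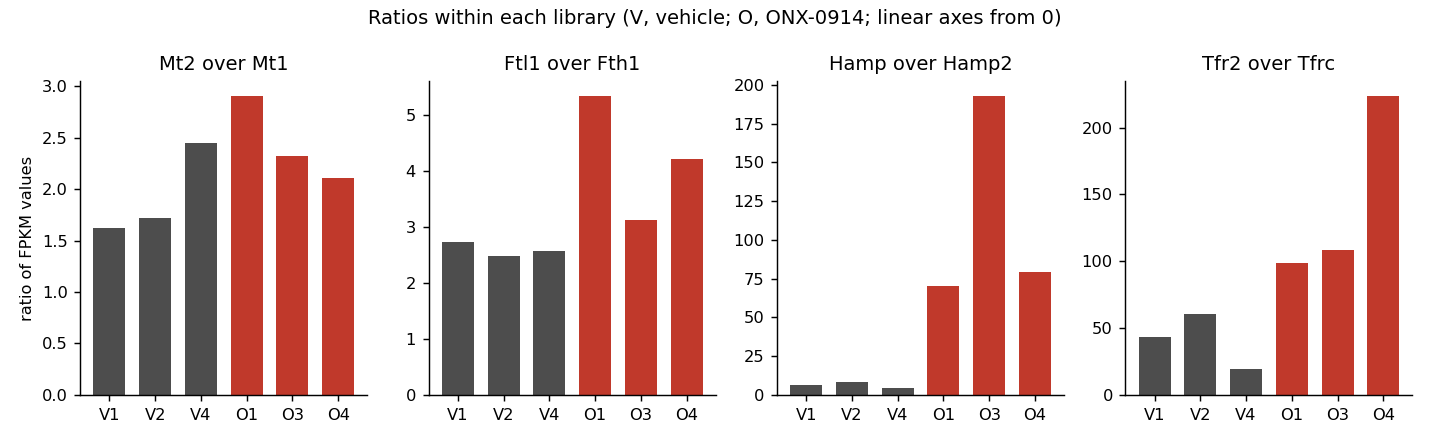
Ratios of FPKM values within each library for 4 gene pairs, as bars on linear axes from 0 (V, vehicle; O, ONX-0914). The ratio of Hamp to Hamp2 is between 4.42 and 8.09 with vehicle and between 70.3 and 193 with ONX-0914.

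Of 18 tested genes of BMP and HFE control, 14 fell and 1 rose, with a median log2 fold change of -1.06, where 43.5% and 2.56% of all genes did. After median-ratio scaling 7 fell and 1 rose (18.7% and 9.64% of all genes). After length correction 2 fell and 1 rose, near the shares of all genes (11.6% and 9.56%). Bmp2, a BMP made by sinusoidal endothelium, was 7.30, 6.72 and 5.65 FPKM with vehicle and 0.84, 3.29 and 0.50 with ONX-0914 (log2 fold change -1.72, limma adjusted p = 0.0075). The fall was present in every treated library and passed after median-ratio scaling (-1.33) and after length correction (-0.91). Bmp6, the iron-responsive BMP, was 2.07, 1.54 and 1.29 FPKM with vehicle and 0.30, 0.36 and 0 with ONX-0914 (-1.11, limma adjusted p = 0.0038). It did not pass after length correction (-0.29). All 12 endothelial markers tested fell too, 11 of them after median-ratio scaling and 10 after length correction (43.5%, 18.7% and 11.6% of all genes). Their summed level was 217 to 227 FPKM with vehicle and 33.05 to 57.6 with ONX-0914. In bulk RNA, fewer cells of a type and less RNA per cell cannot be told apart, and the part of the endothelial cells in these values was not tested.

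Hjv, the hemojuvelin gene of the BMP co-receptor on hepatocytes, fell from 95.5 ± 12.1 to 37.8 ± 9.59 FPKM (n = 3 for both, log2 fold change -1.34, limma adjusted p = 0.0036). Tmprss6, the gene of the protease that cleaves hemojuvelin and so restrains hepcidin, fell from 165.5 ± 10.1 to 83.0 ± 16.8 FPKM (-1.004, limma adjusted p = 0.0056). Hfe, mutated in hereditary hemochromatosis, fell from 69.4 ± 7.19 to 44.7 ± 8.96 FPKM (-0.64, limma adjusted p = 0.0378). The median of all genes was -0.64, and none of these 3 passed after median-ratio scaling (-0.75, -0.41 and -0.05) or after length correction (-0.82, -0.23 and 0.18). The Hfe call was also lost without vehicle 1, 2 or 4 or ONX-0914 1 (limma adjusted p from 0.0815 to 0.137). Bmpr1a, a BMP receptor gene, was lower as well (-1.31, limma adjusted p = 0.004), but did not pass after length correction (-0.41). Fgl1, a hepatocyte-secreted protein reported to antagonise BMP signalling, was the list's only rise. It went from 1102 ± 158 to 2517 ± 312 FPKM (n = 3 each, 1.19, limma adjusted p = 0.0031), and passed in the other 2 scalings as well (1.79 and 1.29).

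Of 8 tested genes of the IL-6 and STAT3 branch, 7 fell and none rose, where 43.5% and 2.56% of all genes did. After median-ratio scaling 2 fell and after length correction 1 fell, shares near those of all genes (18.7% and 11.6%). That last gene was Il6st, the gene of the shared receptor subunit gp130, at 14.4, 16.6 and 18.5 FPKM with vehicle and 2.05, 7.13 and 1.27 with ONX-0914 (log2 fold change -2.18, limma adjusted p = 0.0052). Stat3 was 26.5, 25.2 and 22.1 FPKM with vehicle and 3.78, 23.2 and 5.72 with ONX-0914 (-1.47, limma adjusted p = 0.041). ONX-0914 1 and 4 were below all vehicle libraries, and ONX-0914 3 was within the vehicle range. Il6ra, the IL-6 receptor gene, was 4.74, 7.95 and 11.5 FPKM with vehicle and 0.77, 6.54 and 1.02 with ONX-0914 (-1.52, limma adjusted p = 0.0427). Neither Stat3 nor Il6ra passed after median-ratio scaling (limma adjusted p = 0.156 and 0.136). Both calls were lost without any 1 of 5 libraries, ONX-0914 3 being the exception (limma adjusted p from 0.0833 to 0.143 for Stat3 and from 0.0539 to 0.15 for Il6ra). Il6 was listed at 0 in all libraries. Socs3, a STAT3 target named here after its values were seen, was 9.37, 4.71 and 4.32 FPKM with vehicle and 3.42, 18.5 and 8.45 with ONX-0914, and was not called (0.46, limma adjusted p = 0.47).

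**Figure D4:**
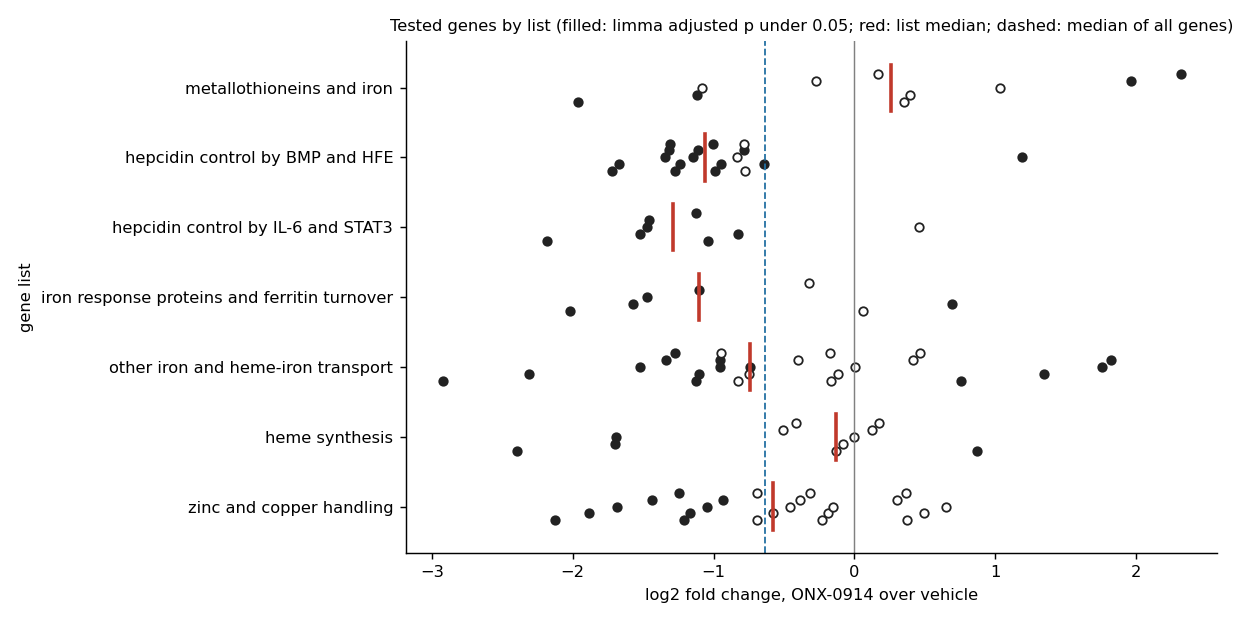
Log2 fold changes of the tested genes, 1 point a gene, for the 10 genes described and the 6 lists of related genes; filled points have a limma adjusted p under 0.05, red lines are list medians and the dashed line is the median of all genes at -0.64. The hepcidin-control lists (BMP and HFE, IL-6 and STAT3) have medians of -1.06 and -1.29, while Mt1 and Mt2 are the 2 rightmost points of the top row.

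Trf, on chromosome 9, encodes transferrin and had the highest level of the 10. It was 13400, 15077 and 13264 FPKM with vehicle and 16931, 14478 and 15435 with ONX-0914, so the groups overlapped. The log2 fold change of 0.17 (SE 0.21) did not pass (limma adjusted p = 0.536). It was 0.77 after median-ratio scaling (limma adjusted p = 0.086), -0.30 after quantile normalization, and 0.83 after length correction, where it passed (limma adjusted p = 0.0235). The gene model Gm20425 overlaps Trf on the same strand, so reads could have been split between them. Trf held rank 9 of all genes with vehicle and rank 12 with ONX-0914.

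The 2 transferrin receptor genes had opposite signs. Tfrc, on chromosome 16, encodes receptor 1, which most cells use to take up transferrin. It was the lowest of the 10, at 3.80, 3.27 and 9.10 FPKM with vehicle and 2.23, 1.87 and 1.20 with ONX-0914. Each treated library was below each vehicle library, and vehicle 4 was far above the other 2. The log2 fold change was -1.11 (SE 0.35, limma adjusted p = 0.0297). It did not pass after median-ratio scaling (-0.68, limma adjusted p = 0.171), after length correction (-0.21, limma adjusted p = 0.701) or without vehicle 4 (-0.73, limma adjusted p = 0.1). It also missed without vehicle 1 or ONX-0914 1 or 4 (limma adjusted p = 0.0558, 0.0506 and 0.1). Red cell precursors express Tfrc strongly. The 9 erythroid markers in the matrix summed to 169 to 628.5 FPKM with vehicle and 314 to 441 with ONX-0914, with no call in either direction among the 6 tested.

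Tfr2, on chromosome 5, encodes receptor 2, a hepatocyte protein that senses transferrin iron and is needed for normal hepcidin expression. It was 165, 198 and 176 FPKM with vehicle and 221, 203 and 268 with ONX-0914, just above vehicle in every treated library. The log2 fold change of 0.35 (SE 0.19) did not pass (limma adjusted p = 0.156). It passed without ONX-0914 3 (0.44, limma adjusted p = 0.0485), after median-ratio scaling (0.95, limma adjusted p = 0.0245) and after length correction (1.108, limma adjusted p = 0.019). The ratio of Tfr2 to Tfrc was 43.4, 60.4 and 19.4 with vehicle and 99.0, 108 and 224 with ONX-0914, without overlap (exact permutation p = 0.1, adjusted 0.133).

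The ferritin genes encode the 2 subunits of the iron storage shell, the heavy chain with ferroxidase activity (Fth1, chromosome 19) and the light chain (Ftl1, chromosome 7). Fth1 was 3512, 3162 and 3397 FPKM with vehicle and 2763, 2817 and 2760 with ONX-0914. The treated libraries were close to each other and all below vehicle, but the log2 fold change of -0.27 (SE 0.18) did not pass (limma adjusted p = 0.246). Its sign turned to 0.33 after median-ratio scaling and 0.03 after length correction, neither called. Ftl1 was 9591, 7858 and 8767 FPKM with vehicle and 14777, 8801 and 11624 with ONX-0914. As for Hamp, ONX-0914 1 and 4 were above vehicle and ONX-0914 3 within its range (0.40, SE 0.25, limma adjusted p = 0.211, and -0.34 after quantile normalization). Without ONX-0914 3 Ftl1 passed (0.59, limma adjusted p = 0.0279). The balance of light to heavy chain transcript was higher in every treated library. The ratio of Ftl1 to Fth1 was 2.73, 2.49 and 2.58 with vehicle and 5.35, 3.12 and 4.21 with ONX-0914 (means 2.60 ± 0.12 and 4.23 ± 1.112, n = 3 each, exact permutation p = 0.1, adjusted 0.133). The longest coding transcripts of Ftl1 and Fth1 have 968 and 1494 bases, and after length correction the log2 fold changes were 0.39 and 0.03.

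Slc40a1, on chromosome 1 from 45908068 to 45926523 (minus strand), encodes ferroportin, the only known cellular iron exporter. It was 71.9, 50.3 and 70.0 FPKM in the libraries vehicle 1, 2 and 4, and 12.9, 19.7 and 14.5 in the treated libraries ONX-0914 1, 3 and 4. The groups were far apart, and the treated libraries were close to each other. The means were 64.1 ± 12 and 15.7 ± 3.53 FPKM (n = 3 each), a log2 fold change of -1.97 with SE 0.24 (limma adjusted p = 0.0015). Slc40a1 passed in every alternative computed, from -2.29 to -1.17, including the median-ratio scaling (-1.39) and removal of the length trend (-1.17). Its rank by mean level went from 1636 to 3229 of all genes. Macrophages, which recycle red cell iron, express ferroportin strongly. Of 11 Kupffer cell and macrophage markers tested, 8 fell and none rose (43.5% of all genes fell). After median-ratio scaling 4 fell (18.7%), and after length correction 6 (11.6%). The summed level of the 12 listed was 1162 to 1784 FPKM with vehicle and 610 to 999 with ONX-0914, so the groups did not overlap. Within that list Clec4f, which marks Kupffer cells, was 105 to 187 FPKM with vehicle and 77.3 to 238 with ONX-0914. It was among the 3 not called. Among the 8 that fell, Cd5l went from a mean of 531.7 to 113 FPKM (log2 fold change -2.20). Vsig4, also among the 8, went from 87.8 to 25.5 FPKM (-1.79). The part of macrophages in the Slc40a1 fall was not tested.

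Slc39a14, on chromosome 14, encodes ZIP14, which imports free iron, zinc and manganese into hepatocytes and is induced by IL-6. It was 22.2, 32.2 and 33.0 FPKM with vehicle and 8.86, 40.9 and 5.63 with ONX-0914. The treated libraries fell on both sides of vehicle: 2 were below all vehicle libraries and ONX-0914 3 was above them. Over all libraries it was not called (log2 fold change -1.09, SE 0.58, limma adjusted p = 0.147). Without ONX-0914 3 it was at -1.88 (limma adjusted p = 0.00039), and that library alone was at 0.50 (limma adjusted p = 0.172). Steap4, a metalloreductase gene named after its values were seen, had a similar spread, at 59.9, 70.4 and 50.8 FPKM with vehicle and 9.57, 243 and 17.5 with ONX-0914. Slc39a8, the gene of the related importer ZIP8, was 8.83, 7.92 and 8.40 FPKM with vehicle and 0.43, 1.34 and 1.01 with ONX-0914. It fell in all 3 (-2.31, limma adjusted p = 0.0012), and with median-ratio scaling (-1.91) and the length trend removed (-1.50).

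**Figure D5:**
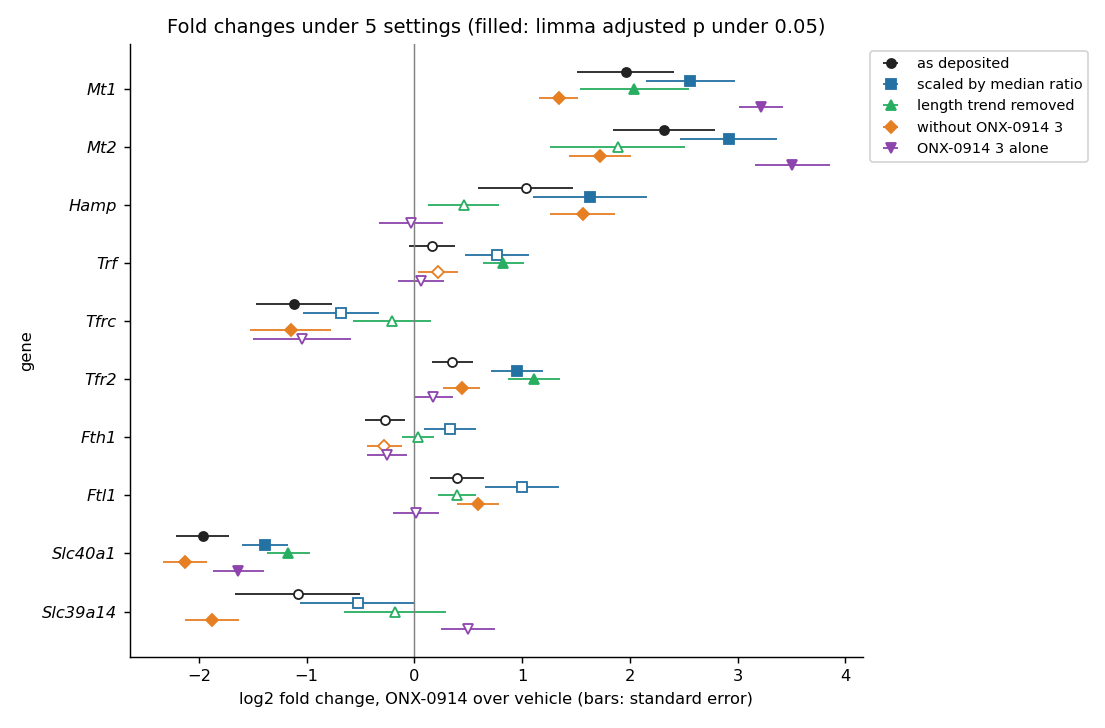
Log2 fold changes (ONX-0914 over vehicle) of the 10 genes under 5 settings, with standard errors as bars; filled symbols have a limma adjusted p under 0.05. Slc40a1 is filled and below 0 in all 5, Mt1 is filled and above 0 in all 5, and Slc39a14 is at 0.50 in ONX-0914 3 alone and at -1.88 without that library.

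Iron-responsive elements, the hairpins bound by iron regulatory proteins, are shown for the 4 genes of the 10 that hold them, since ferritin, ferroportin and receptor 1 transcripts share this control. They were searched in the longest coding transcript of each gene (GENCODE M21, GRCm38) as a C, 5 bases, CAGTG and 6 further bases, where the 5 bases on either side of the loop can pair, G-U pairs allowed. Capitals mark the first 5 loop bases.
Fth1, 5′ UTR, chr19:9982738-9982754, plus strand: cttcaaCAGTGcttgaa
Ftl1, 5′ UTR, chr7:45459785-45459801, minus strand: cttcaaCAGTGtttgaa
Slc40a1, 5′ UTR, chr1:45925471-45925487, minus strand: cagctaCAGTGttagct
Tfrc, 3′ UTR, chr16:32631225-32631241, plus strand: cggaagCAGTGccttcc
Tfrc, 3′ UTR, chr16:32631604-32631620, plus strand: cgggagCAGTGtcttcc
Tfrc, 3′ UTR, chr16:32631669-32631685, plus strand: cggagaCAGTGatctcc
Tfrc, 3′ UTR, chr16:32631716-32631732, plus strand: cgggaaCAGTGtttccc
Such a match is in the 5′ UTR of 21 of 21875 genes (0.096%) and in the 3′ UTR of 117 (0.535%), and Tfrc was the only gene with at least 4 in its 3′ UTR. As background, elements in the 5′ UTR block translation and those in the 3′ UTR stabilise the mRNA when iron is low. No protein was measured here, so the amounts of ferritin and ferroportin protein are not known from these RNA levels.

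Of 7 tested genes of that control system and of ferritin turnover, 4 fell and 1 rose, with a median log2 fold change of -1.10, where 43.5% and 2.56% of all genes did. After median-ratio scaling 3 fell and 2 rose (18.7% and 9.64% of all genes), and after length correction 2 fell and 1 rose (11.6% and 9.56%). Aco1, which encodes iron regulatory protein 1, fell from 72.9 ± 5.45 to 26.5 ± 8.89 FPKM (n = 3 for both, log2 fold change -1.47, limma adjusted p = 0.0034), and Ireb2, iron regulatory protein 2, fell from 10.7 ± 1.59 to 4.54 ± 1.46 FPKM (-1.10, limma adjusted p = 0.0122). Ncoa4, the receptor that delivers ferritin to autophagy, was 49.4, 43.4 and 43.9 FPKM with vehicle and 4.74, 23.5 and 9.66 with ONX-0914 (-2.02, limma adjusted p = 0.0073). Its fall was larger in ONX-0914 1 and 4 than in ONX-0914 3. Fbxl5, the gene of the iron sensor that targets iron regulatory proteins for degradation, fell from 15.5 ± 2.8 to 4.65 ± 1.55 FPKM (-1.57, limma adjusted p = 0.0042). Pcbp2, an iron chaperone and RNA-binding protein gene, rose from 108 ± 10.9 to 179 ± 52.1 FPKM (0.70, limma adjusted p = 0.0356). The Pcbp2 call was lost without any 1 of 5 libraries, ONX-0914 3 being the exception (limma adjusted p from 0.0522 to 0.125), with no filter on low values (0.0533) and in ONX-0914 3 alone (0.0911). The Ireb2 call was lost without vehicle 2 (limma adjusted p = 0.0655). Aco1 and Ncoa4 also passed after median-ratio scaling (-0.89 and -1.46) and after length correction (-0.63 and -1.16), Fbxl5 in the former only, and Ireb2 in neither.

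Of the genes for iron and heme transport, Hpx, Hp, Lcn2 and Blvrb rose. Hpx, the gene of the plasma heme carrier hemopexin, was 11374, 13796 and 14611 FPKM with vehicle and 67101, 25102 and 60529 with ONX-0914 (log2 fold change 1.82, limma adjusted p = 0.0056). Hp, Lcn2 and Blvrb, a biliverdin reductase gene, rose as well (1.35, 1.76 and 0.76), and these 4 were the only rises among 24 tested genes of iron and heme transport. In the list as a whole 10 genes fell, a share near the 43.5% of all genes, and 4 rose, where 2.56% of all genes did. All 4 also passed in both other scalings. The Blvrb call was lost without any 1 of 5 libraries, ONX-0914 3 being the exception (limma adjusted p from 0.073 to 0.121), with no filter on low values (0.055) and in ONX-0914 3 alone (0.24, limma adjusted p = 0.374). Neutrophils also express Lcn2, and the neutrophil marker sums given with Hamp overlapped between the groups. Their part in the Lcn2 rise was not tested. Hmox1, heme oxygenase 1, was 58.4, 38.0 and 61.7 FPKM with vehicle and 23.7, 53.0 and 14.2 with ONX-0914, and was not called (-0.95, limma adjusted p = 0.0895). Cp, the ferroxidase ceruloplasmin, was 683, 612 and 631 FPKM with vehicle and 530, 755 and 457 with ONX-0914 (-0.18, limma adjusted p = 0.527), with a sign that turned to 0.42 after median-ratio scaling. After length correction Cp passed as higher (0.72, limma adjusted p = 0.0181).

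Of 11 heme synthesis genes tested, 3 fell and 1 rose, where 43.5% and 2.56% of all genes did, so the falls were a smaller share than over all genes. Cpox, coproporphyrinogen oxidase, was 54.1, 51.2 and 55.9 FPKM with vehicle and 4.38, 21.4 and 8.32 with ONX-0914 (log2 fold change -2.39, limma adjusted p = 0.0039). Fech, the ferrochelatase that inserts iron into protoporphyrin, was 77.0, 72.0 and 61.0 FPKM with vehicle and 11.7, 40.9 and 18.5 with ONX-0914 (-1.70, limma adjusted p = 0.0082). Abcb10, a transporter gene of the inner mitochondrial membrane, fell as well (-1.69, limma adjusted p = 0.0041). Alad, which makes porphobilinogen earlier in the pathway, was 86.6, 97.7 and 91.0 FPKM with vehicle and 244, 114 and 171 with ONX-0914 (0.87, limma adjusted p = 0.0273). For each of the 4, ONX-0914 3 was nearest to vehicle. Cpox, Abcb10 and Alad passed after median-ratio scaling and after length correction, and Fech in the former only. The Alad call was lost without any 1 of 5 libraries, ONX-0914 3 being the exception (limma adjusted p from 0.0647 to 0.0891), and in ONX-0914 3 alone (0.31, limma adjusted p = 0.192).

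Levels of the 10 genes with vehicle ran, by mean, from Trf through Ftl1, Fth1, Hamp, Mt2, Mt1, Tfr2, Slc40a1 and Slc39a14 to Tfrc. Hamp and Mt2 overlapped in that order, with ranges of 712 to 1247 and 634 to 1258 FPKM, while the other neighbours did not. With ONX-0914 the order was Trf, Ftl1, Mt2, Fth1, Hamp, Mt1, Tfr2, Slc39a14, Slc40a1 and Tfrc. Overlapping neighbours were then Trf and Ftl1, Ftl1 and Mt2, Mt2 and Fth1, Fth1 and Hamp, Hamp and Mt1, and Slc39a14 and Slc40a1.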

How the data were processed

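Liver mRNA was sequenced from mice on a high-fat diet, 3 libraries with vehicle and 3 with ONX-0914. The submitters' processing notes list, without role or order, HISAT2 2.0.1, featureCounts 1.6.0, FastQC 0.11.5, cutadapt 1.11 and edgeR, and the build as GRCm38 or mm10. The values were used as deposited by the authors and treated as FPKM, though the matrix header gives no unit. They are not whole, have 2 decimals and sum to 993264 to 1247789 per library, which does not by itself settle the unit. The sources used here do not say whether reads or fragments were counted, and 0 columns were left out.

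Genes above 1 FPKM in at least 3 libraries (10743 of 22851) were tested on log2(FPKM + 1), which understates changes of low genes, with limma 3.58.1 in R 4.3.3, a trend in the variance and no block, and with Benjamini-Hochberg adjustment over all tested genes. Calls are at an adjusted p under 0.05. The fit was tested on data simulated with the vehicle spread in every library. That simulation had no length trend, no shift of most genes and no outlying treated library, so it does not test the calls under them. Length correction subtracted, in each library, a loess curve of the difference to the vehicle mean against the longest coding transcript (GENCODE M21, known for 98.7% of tested genes). Promoters were matched for 7 of the 10 genes. Overlapping antisense genes are annotated at Mt2 and other opposite-strand genes at Hamp and Ftl1. The sources used here do not say whether counting used strand.

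The members and lists were chosen with earlier results of these data known. All 10 members are described. Of the related lists, called genes with the largest changes (mean of at least 1 FPKM) and genes acting directly on a member are named, with those most alike in pattern to Mt1, Mt2 and Hamp (mean of at least 10 FPKM). Alternatives were another pseudocount, 2 filters, 3 scalings, the length trend, a replicate block, a robust fit, ONX-0914 3 alone and leaving out each library.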

Additional observations from a re-analysis of the deposited data

How the results depend on the processing

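Mt1 kept its direction and call in all 16 alternatives (log2 fold change 1.34 to 3.21), as did Slc40a1 (-2.29 to -1.17), and Mt2 in 15 of them. Tfrc lost its call in 10. Members called higher numbered 2, and 4 with median-ratio scaling or an equal upper quartile. Members called lower numbered 2, and 1 with no filter, with each of the 3 scalings, after length correction and in ONX-0914 3 alone. With 1 library left out they ran from 2 to 5 and from 1 to 3. The 5 and 3 came without ONX-0914 3, and the 1 without vehicle 1 or 4 or ONX-0914 1 or 4. Related genes called higher numbered 7, and 14 by median ratio, 15 by upper quartile, 11 quantile normalized and 13 after length correction. Related genes called lower numbered 47, and 22, 21, 16 and 11 in the same settings and 27 in ONX-0914 3 alone. With 1 library left out they ran from 4 to 11 and from 27 to 59. The 4 came without each library other than ONX-0914 3, the 11 and 59 without ONX-0914 3, and the 27 without vehicle 1. The count of lower related genes was 31 without vehicle 2 or ONX-0914 4. A median ratio adds 0.60 to log2 fold changes over genes above 1 FPKM in every library, 0.82 over genes above 0 and 0.12 over genes above 20.

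Signs turned in these settings, and the cause was not tested. In ONX-0914 3 alone Hamp was at -0.030, Slc39a14 at 0.50, Cp at 0.23, Hmox1 at 0.039 and Steap4 at 2.00. Quantile normalized, Trf was at -0.30, Ftl1 at -0.34, Mtf1 at 0.50 and Slc30a1 at 0.073. After median-ratio scaling, Fth1 was at 0.33, Cp at 0.42 and Mtf1 at 0.11, and by upper quartile at 0.34, 0.43 and 0.12. After length correction, Fth1 was at 0.033, Hfe at 0.18, Cp at 0.72, Mtf1 at 0.57, Slc30a1 at 0.22 and Steap4 at 0.022. With 1 library left out, Steap4 ran from -2.12 to 0.15, the latter without ONX-0914 1, and Socs3 from -0.074 to 0.997, the former without ONX-0914 3. The numbers 1 and 4 occur in both groups but are not stated to pair animals. Deviations from the group mean correlated across genes at 0.0011 between the libraries numbered 1 and at 0.13 between those numbered 4. For libraries with different numbers the correlations ran from -0.17 to 0.10. With a replicate block, 3 members were higher and 3 lower, and 10 and 57 related genes. Socs3 was then at -0.20, and Hamp and Slc39a14 were called (1.74 and -1.80, limma adjusted p = 0.00027 and 0.00095). Absolute depth is unknown, so counting error of low genes such as Tfrc and Bmp6 could not be given.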

Other observations

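Of 16 tested glucocorticoid and hypoxia responsive genes, none was called higher and 9 lower (2.56% and 43.5% of all genes), with a median log2 fold change of -1.04. After median-ratio scaling 5 were lower and after length correction 3 (18.7% and 11.6% of all genes). Nr3c1, the glucocorticoid receptor gene, was 9.62, 9.65 and 7.70 FPKM with vehicle and 0.64, 2.36 and 0.91 with ONX-0914 (-2.18, limma adjusted p = 0.0019), and it passed after median-ratio scaling (-1.77) and after length correction (-1.28). Epas1, which encodes the hypoxia factor HIF-2α, was 20.01, 19.2 and 18.1 FPKM with vehicle and 0.96, 12.5 and 1.76 with ONX-0914 (-2.27, limma adjusted p = 0.0156), and did not pass after length correction (-1.36, limma adjusted p = 0.0781). In this list 2 genes were called higher in ONX-0914 3 alone (2.88% of all genes). They were Tat, tyrosine aminotransferase, a glucocorticoid-induced enzyme of hepatocytes, and Per1, a clock gene, both named after their values were seen. Tat was 321, 579 and 513 FPKM with vehicle and 189, 1076 and 165 with ONX-0914. Per1 was 2.89, 5.35 and 3.80 FPKM with vehicle and 2.64, 8.82 and 2.23 with ONX-0914. ONX-0914 3 was thus the highest library for both, as it was for Mt1, Mt2 and Slc39a14. Tat and Per1 were picked from 16 tested genes, a mix of glucocorticoid and hypoxia genes. The median log2 fold change of the 16 in ONX-0914 3 alone was -0.61. Pck1, Fkbp5 and Dusp1 were also positive there (1.41, 0.76 and 0.29). The hypoxia genes tested were all negative there, from -1.44 (Egln3) to -0.056 (Vegfa). So were the remaining genes tested, Nr3c1 (-1.57), Tsc22d3 (-0.78) and Sgk1, a glucocorticoid-induced kinase gene (-1.13). The part of glucocorticoids in these values was not tested.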
